A study of Mus musculus with 8 samples.

Results

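Interferon-stimulated genes were examined in hepatic macrophages from normal and steatotic livers, cultured with vehicle or with cholesterol crystals. The 41 genes form a module that was named by symbol. The rule itself uses no measured value, but the members were chosen with earlier results of these data known. Each of the 41 symbols matched 1 row of the deposited table of 55401 genes, and all 41 were among the 15202 genes tested. They comprised 23 antiviral effector proteins, 3 transcription factors, 4 cytosolic nucleic acid sensors, 1 feedback inhibitor, 7 interferon-inducible GTPases and 3 genes of antigen processing.

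Type I interferons such as interferon-β signal through the receptor chains *Ifnar1* and *Ifnar2* and the kinases *Jak1* and *Tyk2* to a complex that holds *Stat2* and *Irf9* and binds the interferon-stimulated response element (ISRE). Interferon-γ, a product of T and natural killer cells, signals through *Ifngr1* and *Ifngr2* to genes that carry the gamma-activated site (GAS). Macrophages respond to both, and many interferon-stimulated genes are expressed at a low tonic level without infection.

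The macrophages came from 2 kinds of C57BL/6J mice: WT mice on a standard diet (label normal) and MC4R-KO mice, obese through loss of the melanocortin 4 receptor, given a Western diet over 6 to 10 weeks (label steatotic). Cells of the non-parenchymal fraction were taken with an antibody to F4/80 on magnetic beads, a surface marker that resident Kupffer cells and recruited macrophages both carry. They were cultured on collagen and received vehicle (Veh) or cholesterol crystals (CC) at 500 μg/ml for 24 h. Poly(A) RNA was sequenced in 8 libraries, 2 for each of the 4 groups. Genotype and diet changed together between the labels and cannot be told apart, and the study's methods state the age at the start of the diet for a longer feeding but not for the mice used for these cells. Nothing states that the 2 libraries of a group came from separate mice or cultures, so p-values measure only the spread between these libraries.

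Total counts per library ran from 58668655 to 74529462, and the Pearson correlation of log2 expression between the 2 libraries of a group was 0.9827 to 0.985. No count fell on *Mc4r* in any library labelled normal, whereas those labelled steatotic held 22 to 72 counts (n = 4 and 4, exact two-sided permutation test on CPM, p = 0.0286, the smallest this design allows). The few counts on the targeted gene thus stood under the label of its knockout, where 1 sequenced fragment appears to stand for about 4 deposited counts. Whether the disrupted allele can give reads and whether labels were exchanged was not tested. Every direction below is between libraries labelled normal and libraries labelled steatotic. All 10 macrophage markers were detected, with a summed level of 13687 to 17636 CPM (counts scaled to the library total) under the label normal and 10679 to 13373 CPM under the label steatotic. With Veh, 5 of the 10 were higher with the label steatotic (*Adgre1*, *Cd5l*, *Mertk*, *Timd4* and *Vsig4*) and 4 were lower (*Cd68*, *Clec4f*, *Lyz2* and *Marco*), with a median log2 fold change of 0.15, where 16.4% of all tested genes were higher and 14.3% lower. The 11 markers of T and natural killer cells summed to 4.81 to 9.43 CPM and 50 to 72.7 CPM, and the 7 markers of recruited monocytes to 128 to 200.2 CPM and 289 to 447 CPM, respectively. Of 6 monocyte markers tested at Veh, 4 were higher with the label steatotic (*Ccr2*, *Fn1*, *Itgam* and *Ly6c2*) and *S100a8* was lower. The markers of hepatocytes, 7 genes, summed to 48.1 to 57.7 CPM under the label normal and 1.73 to 2.39 CPM under the label steatotic. Plasmacytoid dendritic cell markers stood at 65.1 to 96.8 CPM and 83.1 to 133 CPM with *Klk1* at 0, and conventional dendritic cell markers at 25.6 to 35.2 CPM and 42.8 to 172 CPM. Of 4 plasmacytoid markers tested at Veh, 1 was higher with the label steatotic (*Il3ra*) and 0 lower. Of 5 conventional markers tested at Veh, 3 were higher (*Clec9a*, *Itgax* and *Xcr1*) and *Flt3* was lower. Endothelial markers stood at 138 to 169.8 CPM and 214 to 242 CPM, stellate cell markers at 2.58 to 2.69 CPM with Veh and 5.91 to 7.35 CPM with CC under the label normal and at 17.9 to 21.1 CPM and 108 to 135 CPM under the label steatotic, B cell markers at 1.2 to 3.02 CPM over both labels, and neutrophil markers at no more than 0.489 CPM with *Ly6g* at 0. Of 5 endothelial markers tested at Veh, 4 were higher with the label steatotic and *Stab2* was lower. Of the 6 stellate cell markers only *Dcn* reached the level for testing, and it was higher. These counts at Veh stand beside the same 16.4% and 14.3% of all tested genes. The part of these other cells in the results below was not tested, and in such bulk samples fewer cells of a type and less RNA per cell cannot be told apart.

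RefSeq promoter windows of the mouse build GRCm38.p6, from 250 bases before to 50 bases after each gene start, were at hand for 32 of the 41 genes. The ISRE core was searched as GAAA, any 2 bases and GAAA, and the GAS core as TTC, any 3 bases and GAA, both on either strand. The ISRE core was present in 18 of these 32 genes (56.2%), and in 3.99% of all 27025 gene symbols with a window. The GAS core was present in 12 of the 32 genes (37.5%), against 9.55% of all symbols. A match is a description of the letters and not a site of binding, and 7 members held both cores. Matches of the ISRE core overlapped each other in *Isg15*, *Bst2*, *Oas1a*, *Gbp3* and *Irgm1*, and a GAS match overlapped an ISRE match in *Bst2* and *Ifitm3*. The 6 stretches below are shown as examples from different roles, 3 effector genes with ISRE cores, 2 GTPase genes, and *Psmb8*, an antigen processing gene with a GAS core alone that did not pass edgeR's test in any comparison. They read 5′ to 3′ on the strand of the gene, with the matched cores in capitals.
Ifit3 (chr19:34583323-34583466, plus strand): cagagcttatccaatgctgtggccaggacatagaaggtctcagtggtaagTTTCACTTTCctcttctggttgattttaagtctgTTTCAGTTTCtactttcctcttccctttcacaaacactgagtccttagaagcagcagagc
Rsad2 (chr12:26456513-26456622, minus strand): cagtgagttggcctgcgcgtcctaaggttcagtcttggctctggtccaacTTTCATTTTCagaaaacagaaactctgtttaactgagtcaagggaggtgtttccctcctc
Isg15 (chr4:156200825-156200946, minus strand): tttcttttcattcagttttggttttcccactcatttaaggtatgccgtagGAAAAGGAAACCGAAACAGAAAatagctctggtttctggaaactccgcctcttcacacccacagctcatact
Gbp2 (chr3:142620554-142620663, plus strand): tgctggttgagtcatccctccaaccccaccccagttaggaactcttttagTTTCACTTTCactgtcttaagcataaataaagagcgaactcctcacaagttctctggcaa
Gbp5 (chr3:142496684-142496940, plus strand): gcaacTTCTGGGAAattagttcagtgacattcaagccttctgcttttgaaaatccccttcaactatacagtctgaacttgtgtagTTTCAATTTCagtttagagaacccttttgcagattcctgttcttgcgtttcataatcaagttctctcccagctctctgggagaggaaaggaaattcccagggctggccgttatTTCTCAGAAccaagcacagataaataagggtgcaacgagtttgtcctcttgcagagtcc
Psmb8 (chr17:34198048-34198156, plus strand): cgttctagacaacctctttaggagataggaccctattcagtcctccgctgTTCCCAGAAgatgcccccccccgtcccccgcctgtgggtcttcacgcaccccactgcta

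**Figure D1:**
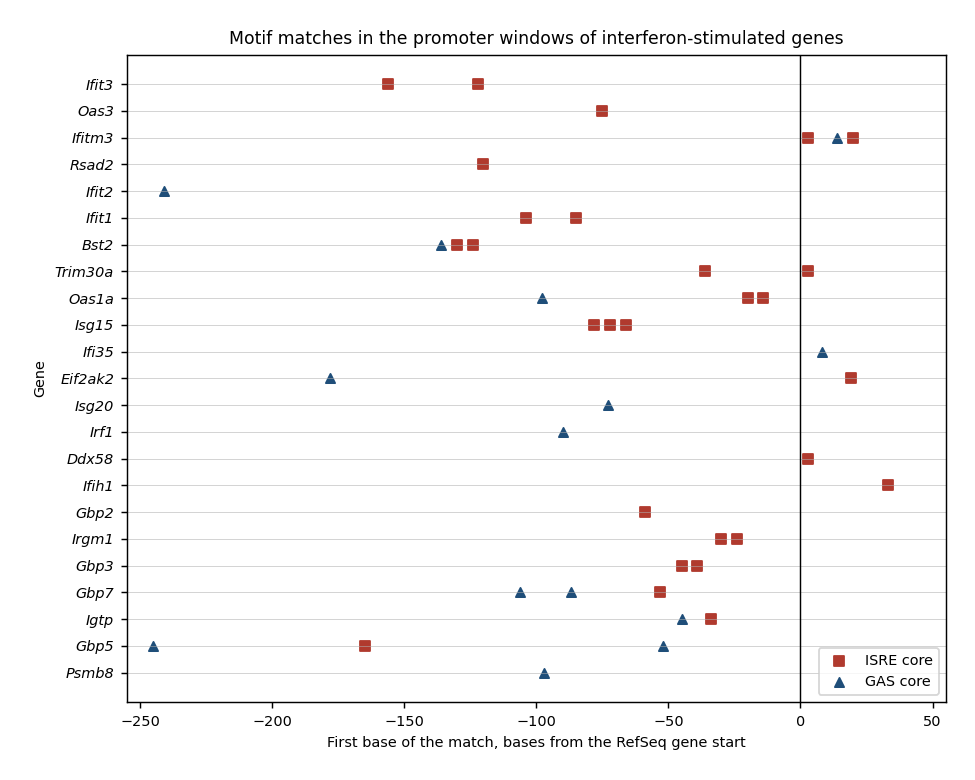
Matches of the ISRE core (squares) and the GAS core (triangles) in the RefSeq promoter windows of the members that held at least 1 match, by the distance in bases of the first matched base from the gene start. The ISRE matches of *Ifit3* lie at -156 and -122 and that of *Rsad2* at -120, while those of *Ifitm3*, *Ddx58* and *Ifih1* begin after the start.

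The interferon-stimulated genes were abundant in every library. Together they took 2.02% to 2.09% of all counts, with summed levels of 20187 to 20942 CPM, so that the sum hardly moved between the 4 groups. The median member was at 303 to 314 CPM where the label was normal and at 343 to 392 CPM where it was steatotic, without overlap. Ranked by CPM per kilobase of merged exons among 15181 genes, the median member lay at percentile 95.5 to 96.5 of each library, and the lowest member in any library at percentile 72.7.

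On that per-length scale the highest level with the label normal and Veh was that of *Ifitm3*, a membrane protein that blocks virus entry, with 2129.8 CPM per kilobase. It was followed by *Ifit3* with 1312 CPM per kilobase, *Bst2* (tetherin, which retains budding virus at the cell surface) with 844 and the ubiquitin-like modifier *Isg15* with 521. With the label steatotic and Veh the order was *Ifitm3* with 2336 CPM per kilobase, *Bst2* with 772, *Ifit3* with 682 and *Isg15* with 659. The lowest levels with the label normal and Veh were those of *Mx2* (11.6 CPM per kilobase), *Ifi44* (13.1) and *Gbp5* (14.9). With the label steatotic and Veh, *Ifi44* stood at 47.2 CPM per kilobase and *Mx2* was again lowest with 15.4.

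**Figure D2:**
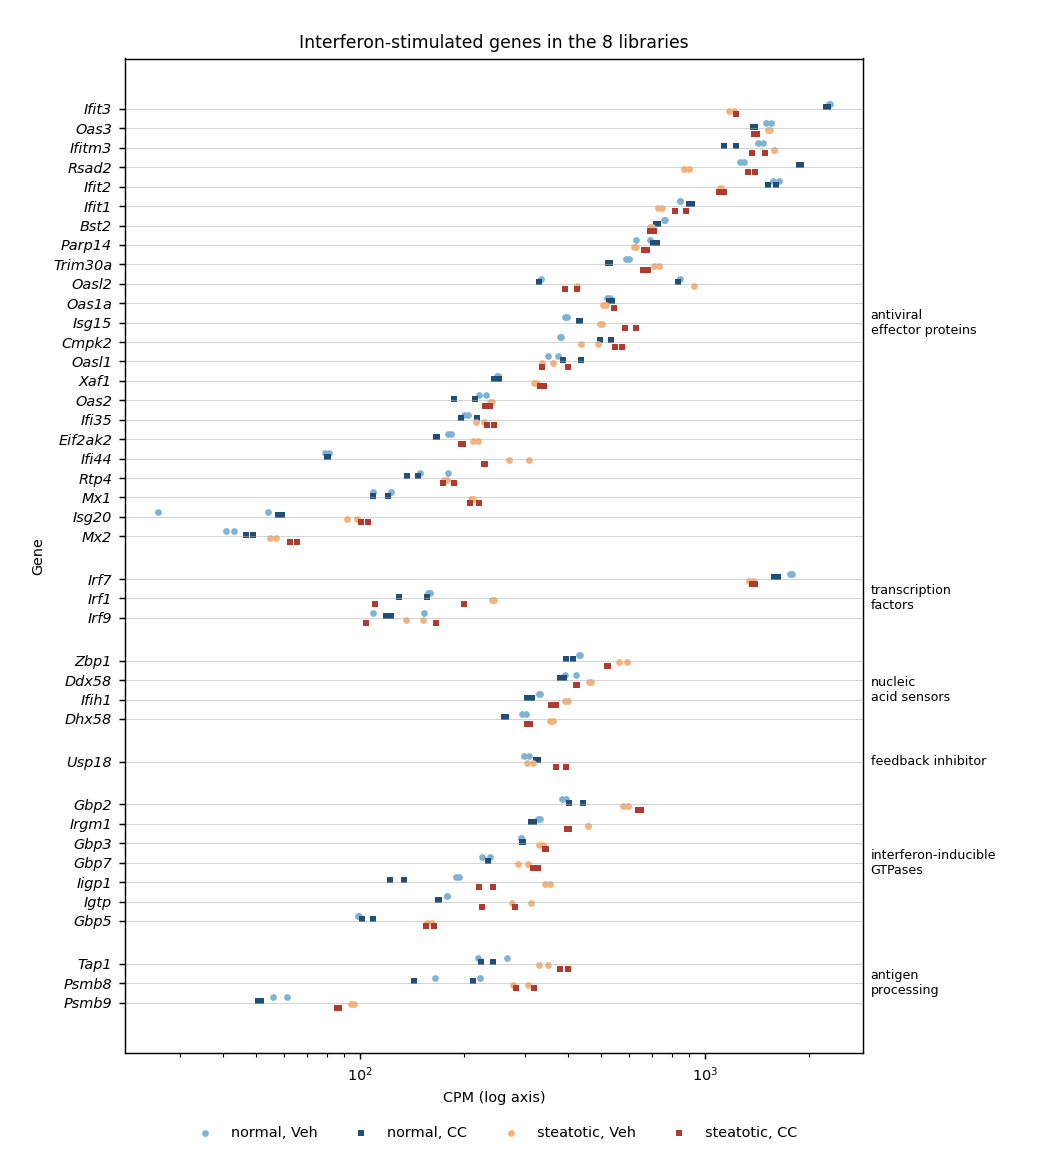
CPM of each of the 41 interferon-stimulated genes (log axis), 1 point per library, with genes grouped by role. Circles are Veh and squares are CC libraries, blue for the label normal and orange or red for the label steatotic. *Ifi44*, *Mx1* and the GTPase genes lie further right in all libraries labelled steatotic, whereas *Ifit3*, *Ifit2* and *Irf7* lie further left.

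In 36 of the 41 members the 2 libraries of every group were within a ratio of 1.25. The others were *Oasl2* with a ratio of up to 2.54, *Isg20* with 2.07, *Irf1* with 1.82, *Irf9* with 1.59 and *Psmb8* with 1.48. *Oasl2*, an OAS-like protein, alternated between 329 and 426 CPM in 5 libraries and 836 and 927 CPM in the other 3, with a high library in 3 of the 4 groups, so no comparison of this gene can be read. On the annotation 18 members overlap another gene, and in 5 of them the overlapping gene held more than 5% of the member's own counts: *Irf9* (with *Rnf31*), *Igtp* (with *Irgm2*), *Tap1* and *Psmb9* (with each other, on opposite strands) and *Rtp4* (with *Masp1*). The libraries were made with a directional kit, but whether strand was used in counting is not stated, so reads of such pairs cannot be told apart. The *Ifit*, *Oas* and *Gbp* genes lie near related genes, and their counts are uncertain to the extent that reads fit more than 1 of them, which was not measured. *Mx2* is annotated as a polymorphic pseudogene.

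The first comparison asked how macrophages from steatotic livers differed from those of normal livers before any crystals were given. With Veh, 23 of the 41 members were higher with the label steatotic, 5 were lower and 13 did not pass the test (edgeR quasi-likelihood test, Benjamini-Hochberg adjusted p under 0.05). Among all tested genes 16.4% were higher and 14.3% were lower. The median log2 fold change of the members was 0.31, and that of all tested genes was -0.00955. All 7 GTPases and all 4 nucleic acid sensors were higher, as were 10 of the 23 antiviral effectors. The genes that were lower were 4 other effectors (the 3 *Ifit* genes and *Rsad2*) and the transcription factor *Irf7*.

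Among the antiviral effectors, 10 of 23 were higher, 4 were lower and 9 did not pass the test. *Ifit3*, a tetratricopeptide repeat protein that curbs virus replication, had 2287 and 2293 CPM in the 2 libraries with the label normal and Veh, and 1210.3 and 1171 CPM in those with the label steatotic and Veh. It was 1.86-fold lower (log2 fold change -0.90, SE 0.0301, adjusted p = 1.28e-06 by edgeR). *Ifit2*, its neighbour on chromosome 19, had 1568 and 1633 CPM against 1101 and 1114 CPM (log2 fold change -0.49, SE 0.039, adjusted p = 7.35e-05 by edgeR).
The 3 *Ifit* genes lie on the plus strand of one cluster, *Ifit2* at chr19:34550694-34576419, *Ifit3* at chr19:34583531-34588731 and *Ifit1* at chr19:34640871-34650009, with the relatives *Ifit1bl1*, *Ifit3b* and *Ifit1bl2* between *Ifit3* and *Ifit1*. *Ifit1*, which binds RNA caps without 2′-O-methylation, had 846 and 846 CPM against 750.1 and 729 CPM (log2 fold change -0.15, adjusted p = 0.0371 by edgeR), and this call was lost in 7 of 15 alternative fits, with adjusted p of up to 0.165. In *Ifit3* and *Ifit2* the libraries of the groups were far apart, while the difference in *Ifit1* was small.
*Rsad2* (viperin, which makes a chain-terminating nucleotide) had 1261 and 1296 CPM with the label normal and 897 and 865 CPM with the label steatotic (log2 fold change -0.49, SE 0.0378, adjusted p = 5.88e-05 by edgeR).

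The effector with the largest increase was *Ifi44*, an interferon-induced protein of the cytoplasm at chr3:151730922-151749960 on the minus strand. It had 81.2 and 78.9 CPM with the label normal and Veh and 309 and 269 CPM with the label steatotic and Veh, which is 3.73-fold higher (log2 fold change 1.90, SE 0.0649, adjusted p = 1.39e-06 by edgeR). *Mx1*, a gene of the dynamin-like GTPase family whose protein was not measured here, rose from 109 and 123 CPM to 212 and 209 CPM (1.87-fold, adjusted p = 7.6e-05 by edgeR). *Isg15* rose from 397 and 392 CPM to 494 and 503 CPM (1.3-fold, adjusted p = 0.000293 by edgeR). In each of these 3 genes both libraries labelled steatotic lay above both libraries labelled normal. *Isg20*, an exonuclease that degrades RNA, had 53.9 and 26 CPM against 98.1 and 91.5 CPM. Its log2 fold change of 1.29 had an SE of 0.342 (adjusted p = 0.0466 by edgeR), the call was lost in 8 of 15 alternative fits, and the log2 fold change was 1.91 without normal Veh replicate 1 and 0.86 without normal Veh replicate 2. *Trim30a*, a TRIM protein known to restrain inflammatory signalling, rose from 591 and 603 CPM to 735 and 712 CPM (1.25-fold, adjusted p = 0.000375 by edgeR). *Ifitm3* had 1467 and 1420.2 CPM against 1587 and 1581 CPM (log2 fold change 0.18, adjusted p = 0.034 by edgeR), a call that 5 of 15 alternative fits did not make. The other effectors that rose were *Mx2*, *Xaf1*, *Cmpk2* and *Eif2ak2*, with log2 fold changes between 0.29 and 0.46. *Oas3*, which makes the 2′-5′ oligoadenylates that activate RNase L, had 1496 and 1546 CPM against 1542 and 1524 CPM, and its log2 fold change of 0.06 did not pass the test (adjusted p = 0.221 by edgeR). *Oas1a* (0.01), *Oas2* (0.13), *Oasl1* (0.00), *Bst2* (-0.08) and *Parp14* (-0.03) were likewise within 0.13 of 0 on the log2 scale, and *Ifi35* (0.18, adjusted p = 0.0501 by edgeR) and *Rtp4* (0.15) did not pass the test either, although *Ifi35* passed it in 8 of 15 alternative fits and *Rtp4* in 1.

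All 7 interferon-inducible GTPases, a group with some members that coat and disrupt the vacuoles of intracellular microbes, rose with the label steatotic, by log2 fold changes of 0.24 to 0.91. *Iigp1* on chromosome 18 had 189.5 and 193 CPM with the label normal and 354 and 343 CPM with the label steatotic, 1.88-fold higher (SE of the log2 fold change 0.0624, adjusted p = 3.4e-05 by edgeR). *Gbp2*, a guanylate-binding protein, had 384 and 394 CPM against 596 and 579 CPM (1.56-fold, SE 0.0478, adjusted p = 4.95e-05 by edgeR). *Irgm1*, a regulator of the other immunity-related GTPases, had 333 and 327 CPM against 458 and 456 CPM (1.43-fold, adjusted p = 2.45e-05 by edgeR). In these 3 genes the gap between the labels was many times the spread within a group. *Gbp2*, *Gbp3*, *Gbp5* and *Gbp7* form a cluster on chromosome 3 between 142493978 and 142638008, and *Gbp5* rose 1.65-fold, *Gbp7* 1.33-fold and *Gbp3* 1.18-fold. The remaining member, *Igtp*, rose 1.7-fold.

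All 4 nucleic acid sensors rose as well, by log2 fold changes of 0.23 to 0.47. *Zbp1*, a sensor of Z-form nucleic acid, had 433 and 430.3 CPM against 595 and 561 CPM (log2 fold change 0.47, SE 0.0414, adjusted p = 0.00012 by edgeR). *Ddx58* (RIG-I, a sensor of viral RNA ends) had 422 and 391 CPM against 465 and 459.9 CPM (log2 fold change 0.23, SE 0.0425, adjusted p = 0.00507 by edgeR). *Ifih1* (MDA5, a sensor of long double-stranded RNA) and *Dhx58* (LGP2, which tunes both) each had a log2 fold change of 0.31.

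The genes of antigen processing showed the same direction. *Tap1*, a subunit of the peptide transporter that feeds MHC class I, had 267 and 219 CPM against 349 and 329 CPM (log2 fold change 0.52, SE 0.0944, adjusted p = 0.0064 by edgeR). *Psmb9*, an immunoproteasome subunit, had 55.9 and 61.2 CPM against 93.9 and 96 CPM (0.74, SE 0.0547, adjusted p = 4.72e-05 by edgeR). The third, *Psmb8*, had 165 and 222 CPM against 306 and 278 CPM, and with an SE of 0.238 its log2 fold change of 0.64 did not pass the test (adjusted p = 0.114 by edgeR), although it passed with DESeq2 here and in 3 of 15 alternative fits between the labels with CC. All 3 lie side by side on chromosome 17 between 34181987 and 34201454, in the MHC region.

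Of the transcription factors none rose. *Irf7*, the factor that amplifies type I interferon production, had 1784 and 1765 CPM with the label normal and 1376 and 1341 CPM with the label steatotic (log2 fold change -0.34, SE 0.0311, adjusted p = 0.000143 by edgeR). *Irf1*, which drives genes of the interferon-γ response, had 157 and 159.7 CPM against 244 and 241 CPM. The 4 values of *Irf1* did not overlap between labels, but its libraries with CC were far apart and the shared spread gave an SE of 0.292 (log2 fold change 0.66, adjusted p = 0.166 by edgeR). Without steatotic CC replicate 1, without steatotic CC replicate 2 or with only the 4 Veh libraries in the fit *Irf1* passed the test, with adjusted p down to 0.000182. *Irf9*, the DNA-binding subunit of the type I complex, had a log2 fold change of 0.19 (adjusted p = 0.669 by edgeR). *Usp18*, which removes *Isg15* from proteins and blocks *Ifnar2* signalling, had 309 and 299 CPM against 317 and 305 CPM and a log2 fold change of 0.08 (adjusted p = 0.232 by edgeR).

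Of the members with a promoter window, the ISRE core was found in 12 of 18 that were higher, 3 of 5 that were lower and 3 of 9 that did not pass the test. The GAS core was found in 6 of 18, 1 of 5 and 5 of 9, respectively. Both cores were thus found among members that rose and among members that fell.

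**Figure D3:**
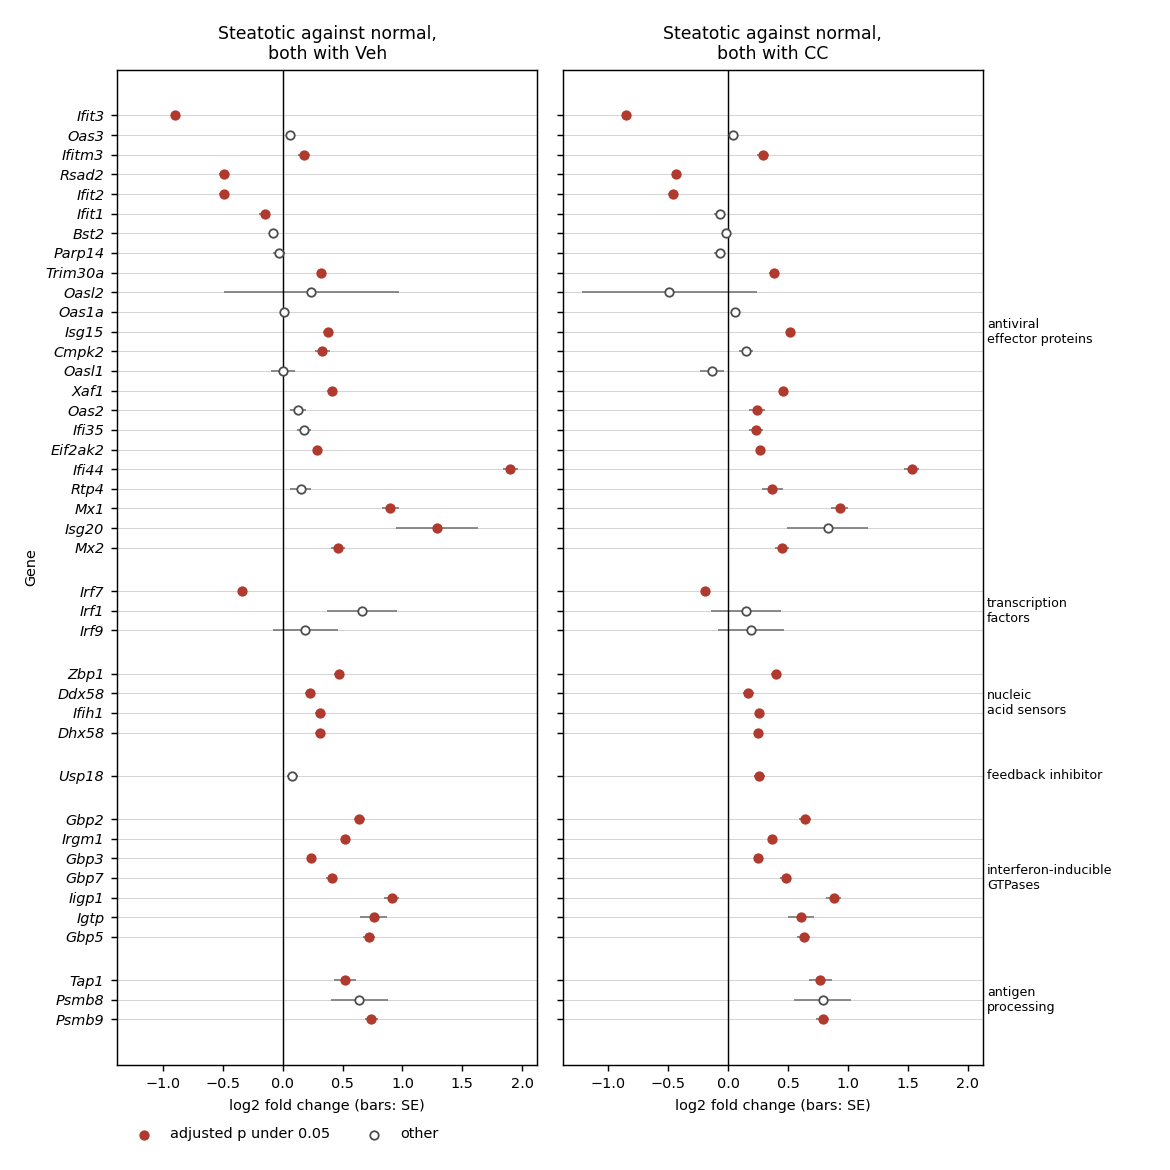
Log2 fold changes of the 41 members between the labels steatotic and normal, with Veh (left) and with CC (right), where bars are the SE and filled points have an adjusted p under 0.05. The 7 GTPases and the 4 sensors lie right of 0 in both panels, and *Ifit3* (-0.90 and -0.85), *Ifit2*, *Rsad2* and *Irf7* left of it.

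The same comparison was made between the libraries that had received CC, which share no library with the first. Here 25 members were higher with the label steatotic, 4 were lower and 12 did not pass the test, with a median log2 fold change of 0.26. Over all tested genes 15.9% were higher and 12.9% lower, with a median of 0.00264. Of the members called higher, 21 were called in both comparisons, which is 21 of 23 with Veh and 21 of 25 with CC. Over all tested genes 71.8% of those called higher with Veh and 73.9% of those called higher with CC were called in both. *Cmpk2* and *Isg20* were called with Veh only, and *Ifi35*, *Oas2*, *Rtp4* and *Usp18* with CC only, which does not show that they differ between the comparisons. *Ifit2*, *Ifit3*, *Irf7* and *Rsad2* were called lower in both, which is 4 of 5 and 4 of 4, beside 61.9% and 68.6% over all tested genes.

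With CC, *Ifit3* had 2239 and 2270 CPM with the label normal and 1227 and 1231 CPM with the label steatotic (log2 fold change -0.85, SE 0.0301, adjusted p = 1.76e-06 by edgeR), and *Ifit2* had 1519 and 1607 CPM against 1099 and 1130.1 CPM (log2 fold change -0.46, adjusted p = 0.000116 by edgeR). *Ifi44* had 80.9 and 80.1 CPM against 228 and 229.8 CPM, 2.89-fold higher (adjusted p = 3.33e-06 by edgeR). *Mx1* had 109 and 120.2 CPM against 208 and 220.4 CPM, 1.9-fold higher (adjusted p = 7.88e-05 by edgeR). These genes kept the order of the labels that they had with Veh, without overlap. *Iigp1* had 122 and 134 CPM against 221 and 243 CPM (1.84-fold, adjusted p = 4.55e-05 by edgeR), and all 7 GTPases were again higher, by log2 fold changes of 0.25 to 0.88. The 4 sensors were again higher, by 0.17 to 0.40. *Usp18* had 324 and 327 CPM against 396 and 370 CPM, a log2 fold change of 0.26 (adjusted p = 0.0042 by edgeR). Among the calls with CC, those of *Ddx58*, *Ifi35*, *Igtp*, *Oas2* and *Rtp4* were lost in at least 1 alternative fit, and the other 24 of 29 were made in each.

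The next comparison asked how the crystals changed these genes in macrophages of normal livers. With CC, 3 members were higher than with Veh, 4 were lower and 34 did not pass the test, and the median log2 fold change was 0.00. Of all tested genes 6.27% were higher and 5.54% lower, with a median of -0.000588. Of the 10 macrophage markers 7 were lower with CC and 0 higher, and their summed level was 17148 to 17636 CPM with Veh and 13687 to 14043 CPM with CC. Of the stellate cell markers *Dcn*, the only 1 tested, was higher with CC. The part of these markers in the responses was not tested. *Rsad2* rose from 1261 and 1296 CPM to 1865 and 1891 CPM (1.51-fold, SE 0.0378, adjusted p = 0.000109 by edgeR). *Cmpk2*, a mitochondrial nucleotide kinase, rose from 381 and 380 CPM to 495 and 534 CPM (1.39-fold, SE 0.0619, adjusted p = 0.0027 by edgeR). These 2 genes are neighbours on chromosome 12 that point away from each other, *Rsad2* at chr12:26442746-26456452 on the minus strand and *Cmpk2* at chr12:26469204-26479837 on the plus strand. *Isg15* had 434 and 430.4 CPM with CC, a 1.12-fold increase (adjusted p = 0.034 by edgeR) that was lost in 6 of 15 alternative fits.
*Iigp1* fell from 189.5 and 193 CPM to 122 and 134 CPM (1.46-fold, SE 0.0622, adjusted p = 0.00141 by edgeR). The other decreases were small: *Ifitm3* to 1230.4 and 1135 CPM (1.19-fold, adjusted p = 0.0198 by edgeR), *Trim30a* to 528 and 524 CPM (1.11-fold, adjusted p = 0.0381 by edgeR) and *Dhx58* from 294 and 303 CPM to 261 and 265 CPM (1.1-fold, adjusted p = 0.0399 by edgeR). Each of these 3 calls was lost in some alternative fits, whereas those of *Rsad2*, *Cmpk2* and *Iigp1* were made in all 15. Leaving out 1 library gave 1 to 4 lower members: 1 without normal Veh replicate 1 or normal CC replicate 2, and 2 without normal Veh replicate 2, normal CC replicate 1, steatotic Veh replicate 1 or steatotic Veh replicate 2. DESeq2 and a fit with the replicate number as a block each gave 2.

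In macrophages of steatotic livers, 7 members were higher with CC, 5 were lower and 29 did not pass the test, with a median log2 fold change of 0.04. Of all tested genes 12% were higher and 10.9% lower, with a median of 0. Here too 7 of the 10 macrophage markers were lower with CC, 2 were higher, and their summed level was 13074 to 13373 CPM with Veh and 10679 to 11962 CPM with CC. The conventional dendritic cell markers summed to 42.8 to 51.2 CPM with Veh and 154 to 172 CPM with CC, but of the 5 tested only *Itgax* was called higher and 0 lower. *Rsad2* rose from 897 and 865 CPM to 1398 and 1333 CPM (1.57-fold, SE 0.0378, adjusted p = 2.21e-05 by edgeR). *Usp18* rose from 317 and 305 CPM to 396 and 370 CPM (1.25-fold, SE 0.0454, adjusted p = 0.00192 by edgeR). *Isg15* rose from 494 and 503 CPM to 586 and 629 CPM (1.23-fold, SE 0.04, adjusted p = 0.00127 by edgeR). In each of the 3 genes the lower CC library lay above the higher Veh library. *Cmpk2* (1.22-fold), *Ifit1* (1.16-fold), *Mx2* (1.16-fold) and *Oas1a* (1.08-fold) passed the test with adjusted p between 0.0101 and 0.0474 by edgeR, and each was lost in at least 1 alternative fit, *Oas1a* in 13 of 15. The count of higher members was 3 without steatotic Veh replicate 2 and 4 without steatotic CC replicate 1.

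*Iigp1* fell from 354 and 343 CPM to 221 and 243 CPM (1.49-fold, SE 0.0621, adjusted p = 0.000476 by edgeR). *Ifi44* fell from 309 and 269 CPM to 228 and 229.8 CPM (1.25-fold, SE 0.0627, adjusted p = 0.00873 by edgeR). *Dhx58* fell from 362 and 355 CPM to 304 and 311 CPM (1.15-fold, adjusted p = 0.00476 by edgeR). These decreases left *Ifi44* and *Iigp1* well above their levels with the label normal and the same treatment. *Irgm1*, from 458 and 456 CPM to 404 and 398 CPM (1.13-fold, adjusted p = 0.00815 by edgeR), and *Oas3*, from 1542 and 1524 CPM to 1411 and 1384 CPM (1.08-fold, adjusted p = 0.0346 by edgeR), made up the 5, and both calls were lost in some alternative fits. Without steatotic Veh replicate 1 the lower members were 3. *Irf1* with CC had 200.2 and 110.3 CPM, so that no change from 244 and 241 CPM could be called (log2 fold change -0.63, adjusted p = 0.221 by edgeR), but without steatotic CC replicate 1 its adjusted p was 0.00141.

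Comparing the calls of both responses, *Cmpk2*, *Isg15* and *Rsad2* were called higher under both labels, which is 3 of 3 and 3 of 7, and *Dhx58* and *Iigp1* were called lower under both, which is 2 of 4 and 2 of 5. Over all tested genes the shares called under both labels were 83.7% and 43.8% of the higher and 79.2% and 40.4% of the lower calls with the labels normal and steatotic. *Ifit2* and *Ifit3* had log2 fold changes with CC of 0.00 to 0.06 under either label, none of which passed the test. Those of *Ifit1* were 0.14 with the label normal (adjusted p = 0.0874 by edgeR) and 0.22 with the label steatotic (adjusted p = 0.0101), and their difference of 0.08 did not pass the test (adjusted p = 0.669).

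**Figure D4:**
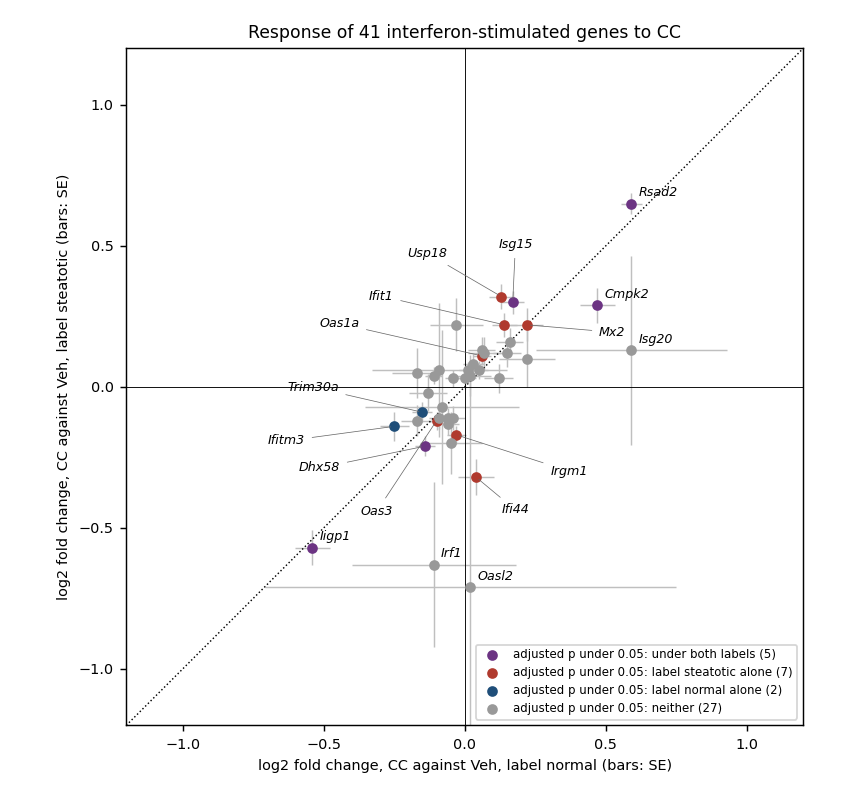
Log2 fold change of each member with CC against Veh, label normal on the horizontal and label steatotic on the vertical axis, with SE bars and a dotted line of equal response. Most points lie near 0, and *Rsad2* (0.59 and 0.65) and *Iigp1* (-0.54 and -0.57) lie close to the dotted line at its ends.

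Whether a response to CC differed between the labels was tested as a contrast of its own. By edgeR 0 of the 41 members passed it, 5 had an unadjusted p under 0.05 beside 14.2% of all tested genes, and DESeq2 called 1, *Ifi44*. Of all tested genes, 1.95% had a higher and 1.27% a lower response with the label steatotic, and the median over members was 0.01 against 0.0053 over all genes. For *Rsad2* the difference of the responses was 0.06 on the log2 scale, with an approximate 95% interval (1.96 SE on either side) of -0.05 to 0.16. For *Iigp1* the difference was -0.03 (-0.20 to 0.14), and for *Isg15* it was 0.13 (0.02 to 0.24, adjusted p = 0.345 by edgeR). *Ifi44* had a difference of -0.36 (-0.54 to -0.19, adjusted p = 0.0853 by edgeR), with an adjusted p of 0.0381 by DESeq2 and a range of 0.0253 to 0.205 over all alternative fits. For *Oasl2* the interval of -2.75 to 1.29 was too wide to be read. *Isg20* passed this test only without normal Veh replicate 1 (adjusted p = 0.00587 by edgeR) and *Irf1* only without steatotic CC replicate 1 (adjusted p = 0.0226 by edgeR).

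The genes that make and carry the interferon signal were examined from lists of their own. Of 21 interferon genes, 17 had no count in any library and 2 reached the level for testing. *Ifnb1*, which encodes interferon-β, had 4 and 12 counts with the label normal and Veh, 4 and 0 with CC, 28 and 32 with the label steatotic and Veh, and 41 and 45 with CC. *Ifng*, which encodes interferon-γ, had 0 and 0, 4 and 0, 12 and 41, and 20 and 41 counts in the same order. Every library labelled steatotic held more counts of either gene than the libraries labelled normal with the same treatment, but none held more than 45, where 1 sequenced fragment appears to stand for about 4 deposited counts. *Ifnb1* passed the test between the labels with CC (adjusted p = 0.0193 by edgeR) and not with Veh (adjusted p = 0.149), and *Ifng* passed it with Veh (adjusted p = 0.0255 by edgeR) and not with CC (adjusted p = 0.0729). Each of the 2 calls was lost in 3 of 14 alternative fits. The markers of T and natural killer cells, which are known to make interferon-γ, moved in the same direction, with 10 of 11 higher with the label steatotic in both comparisons beside 16.4% and 15.9% of all tested genes, and their part in the *Ifng* counts was not tested.

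Of 14 genes of the receptors and their signalling, 10 were higher and 1 was lower with the label steatotic at Veh, and 11 were higher and 0 lower with CC, where 16.4% and 14.3% of all tested genes were higher and lower at Veh and 15.9% and 12.9% with CC. *Ifnar1* had 95.2 and 101 CPM with the label normal and Veh, 108 and 105 CPM with CC, 130.4 and 125 CPM with the label steatotic and Veh, and 161 and 155 CPM with CC. It was higher with the label steatotic by log2 fold changes of 0.43 with Veh (adjusted p = 0.000495 by edgeR) and 0.60 with CC (adjusted p = 0.000104 by edgeR). *Ifnar2* was higher by 0.25 with Veh and 0.23 with CC, the latter lost in 1 of 15 alternative fits. *Ifngr1*, the ligand-binding chain of the interferon-γ receptor, had 57.6 and 63.6 CPM with the label normal and Veh and fell to 42.4 and 42.9 CPM with CC. With the label steatotic it had 68.0 and 83.4 CPM with Veh and fell to 50.7 and 56.7 CPM with CC. The log2 fold changes with CC were -0.47 and -0.48 (adjusted p = 0.0285 and 0.0149 by edgeR), and these calls were lost in 4 and 3 of 15 alternative fits. *Ifngr2* had log2 fold changes of 0.13 (adjusted p = 0.0604 by edgeR) and 0.18 (adjusted p = 0.0167 by edgeR) between the labels with Veh and with CC, where the first passed in 2 and the second was lost in 3 of 15 alternative fits.

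*Stat2* had 426 and 435 CPM with the label normal and 562 and 560.4 CPM with the label steatotic at Veh (1.35-fold, adjusted p = 4.5e-05 by edgeR). *Jak2*, the kinase bound to *Ifngr2*, had 74.5 and 78.6 CPM with the label normal and Veh, 79.4 and 85.1 CPM with CC, 112 and 117 CPM with the label steatotic and Veh, and 165 and 167 CPM with CC. It was the gene of this list whose response to CC differed between the labels (difference 0.41 on the log2 scale, SE 0.0733, adjusted p = 0.0276 by edgeR), and this was lost in 6 of 14 alternative fits. *Jak1* was lower with the label steatotic at Veh (log2 fold change -0.15, adjusted p = 0.0205 by edgeR) and rose with CC under both labels, by 0.22 and 0.39, of which the call at Veh was lost in 3 and that for CC with the label normal in 2 of 15 alternative fits. The feedback inhibitor *Socs3* had 95.4 and 102 CPM against 158 and 153 CPM at Veh (1.63-fold, adjusted p = 3.4e-05 by edgeR) and rose with CC by 0.52 and 0.60 on the log2 scale. *Socs1*, which blocks the kinases directly, rose 1.45-fold with the label steatotic at Veh (adjusted p = 0.0467 by edgeR) and 2.17-fold with CC (adjusted p = 0.00219 by edgeR), at levels of 4.31 to 11.2 CPM. The call at Veh was lost in 7 of 15 alternative fits, the replicate block included, with adjusted p of up to 0.209. The phosphatase *Ptpn6* fell with CC under both labels, by -0.64 and -0.56 on the log2 scale (adjusted p = 0.0122 and 0.0104 by edgeR), and each call was lost in 2 of 15 alternative fits.

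**Figure D5:**
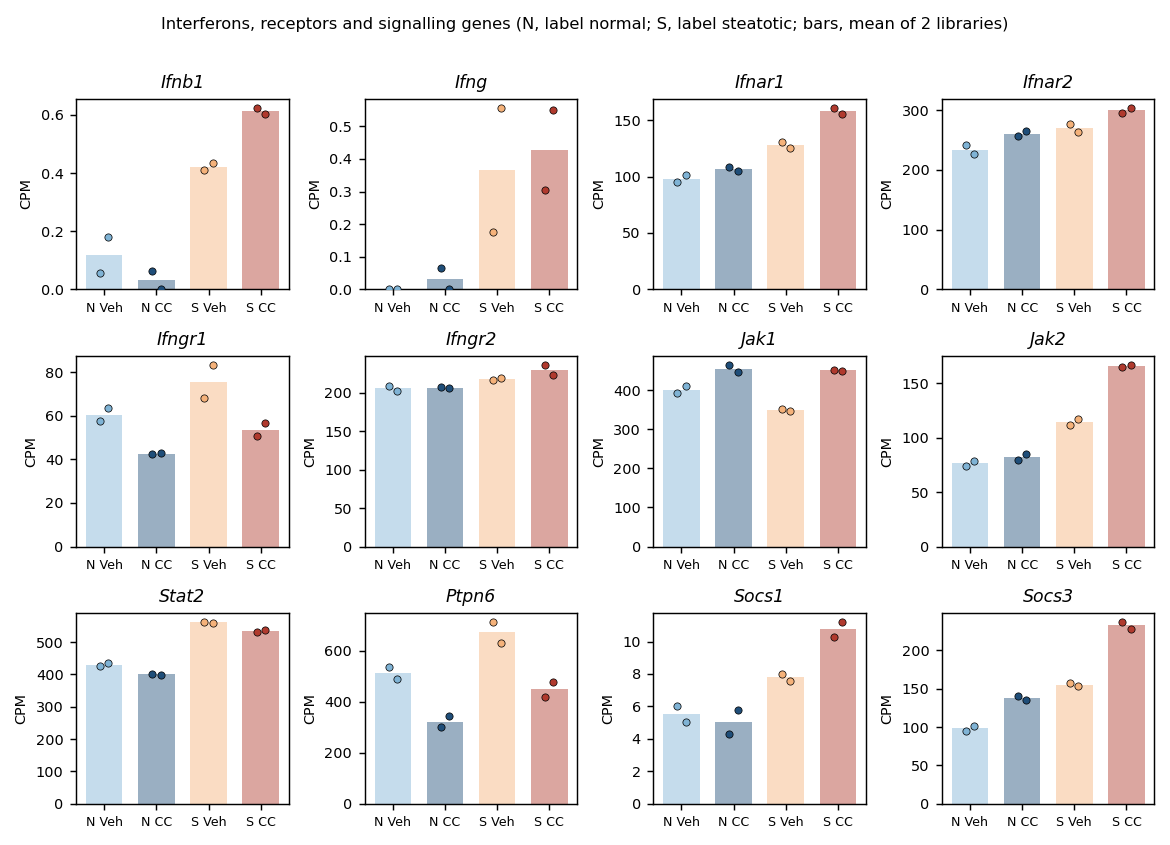
CPM of interferon, receptor and signalling genes in the 4 groups, where bars are the mean of 2 libraries and points are the libraries. *Jak2* stood at 165 and 167 CPM with the label steatotic and CC and at no more than 117 CPM elsewhere, and *Ifnb1* and *Ifng* stayed below 1 CPM in all libraries.

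Of 19 genes that sense nucleic acids or carry that signal toward interferon production, 11 were higher and 0 lower with the label steatotic at Veh, and 8 and 0 with CC, beside the same 16.4% and 14.3%, and 15.9% and 12.9%, of all tested genes. *Tlr9*, the receptor for CpG DNA, had 36.4 and 39.1 CPM with the label normal and Veh, 35.2 and 32.4 CPM with CC, 159.6 and 152 CPM with the label steatotic and Veh, and 79.9 and 71.9 CPM with CC. It was 4.25-fold higher with the label steatotic at Veh (adjusted p = 1.65e-06 by edgeR) and fell 2.03-fold with CC in those libraries, and its response differed between the labels (difference -0.89 on the log2 scale, SE 0.103, adjusted p = 0.00572 by edgeR). *Tlr13*, a receptor for bacterial ribosomal RNA, had 492 and 496 CPM, 475 and 503 CPM, 666 and 654 CPM, and 504 and 516 CPM in the same order of groups. Its response differed in the same direction (-0.38, adjusted p = 0.0117 by edgeR), and with CC its levels differed 1.06-fold between the labels (adjusted p = 0.14 by edgeR). *Tlr7*, a receptor for single-stranded RNA, was higher with the label steatotic at Veh (439 and 446 CPM against 145 and 143 CPM, adjusted p = 0.0388 by edgeR), but its libraries with the label steatotic and CC were at 147 and 339 CPM. This call was lost in 8 of 15 alternative fits, the replicate block included, with adjusted p of up to 0.159. The kinase *Ikbke* rose with CC from 93.7 and 104 CPM to 114 and 111 CPM with the label normal, a call lost in 9 of 15 alternative fits, and from 139 and 136 CPM to 213 and 219 CPM with the label steatotic. The difference of its responses was 0.44 (adjusted p = 0.0266 by edgeR), a call lost in 6 of 14 alternative fits. Its relative *Tbk1* rose with CC under both labels, by 0.29 and 0.35 on the log2 scale. The adaptors *Ticam1* (TRIF), from 36.7 and 35.8 CPM to 45 and 44.2 CPM, and *Ticam2* (TRAM), from 29.5 and 27.6 CPM to 34.6 and 35.3 CPM, rose with CC and the label normal (adjusted p = 0.0335 and 0.0177 by edgeR), calls lost in 4 and 3 of 15 alternative fits. *Ifi204*, a DNA-binding relative of human IFI16, fell with CC under both labels, by -0.18, a call lost in 2 of 15 alternative fits, and -0.26.

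A further list of 79 interferon-stimulated genes outside the 41 gave 54 higher and 4 lower with the label steatotic at Veh, and 55 higher and 4 lower with CC, beside the 16.4% and 14.3%, and 15.9% and 12.9%, of all tested genes given above. With CC against Veh, 5 were higher and 19 lower with the label normal, where 6.27% and 5.54% of all tested genes were, and 6 were higher and 27 lower with the label steatotic, where 12% and 10.9% were. Under each label 7 of the 10 macrophage markers were also lower with CC, and their part in these counts was not tested. The medians of the log2 fold changes with CC were -0.09 and -0.08. *Ms4a4c*, a membrane protein of the CD20 family, had 106 and 109 CPM with the label normal and Veh and was 8.85-fold higher with the label steatotic and Veh (adjusted p = 2.8e-08 by edgeR). With CC it had 85.5 and 89.9 CPM against 705 and 741 CPM, 8.4-fold higher (adjusted p = 2.64e-08 by edgeR). *Ifit1bl1*, a relative of *Ifit1*, had 147 and 149.6 CPM against 818 and 814 CPM, 5.68-fold higher (adjusted p = 1.33e-07 by edgeR), in the direction opposite to *Ifit1*. With CC it fell to 97 and 106 CPM with the label normal and stood at 817 and 825 CPM with the label steatotic, so that its response differed between the labels (0.53 on the log2 scale, adjusted p = 0.00642 by edgeR). *Ifit3b*, the close copy of *Ifit3*, was lower with the label steatotic like *Ifit3* itself, with 769 and 799 CPM against 499.6 and 489.7 CPM (1.54-fold, adjusted p = 1.95e-05 by edgeR). The lowest log2 fold changes that passed the test at Veh were those of *Ifit1bl2*, a further relative of *Ifit1*, with 5.6 and 5.24 CPM against 2.56 and 3.66 CPM (-0.75, adjusted p = 0.0194 by edgeR, lost in 3 of 15 alternative fits), and of *Slfn3*, a member of the Schlafen family, with 20.5 and 24.3 CPM against 12.9 and 14.9 CPM (-0.64, adjusted p = 0.00686 by edgeR). With CC *Slfn3* had 17.4 and 20.4 CPM against 9.36 and 9.06 CPM (-1.01, adjusted p = 0.000925 by edgeR). *Trim25*, the ubiquitin ligase that activates *Ddx58*, was also lower, with 805 and 753 CPM against 588 and 598 CPM (1.27-fold, adjusted p = 0.00177 by edgeR). The chemokines *Cxcl10* and *Cxcl11*, which attract T cells through *Cxcr3*, rose with CC: *Cxcl10* from 90.3 and 82.5 CPM to 143 and 143 CPM with the label steatotic (1.68-fold, adjusted p = 0.000365 by edgeR), and *Cxcl11*, annotated as a polymorphic pseudogene, from 4.67 and 3.79 CPM to 13.6 and 14 CPM (3.3-fold, adjusted p = 0.00345 by edgeR). With the label normal *Cxcl10* rose from 89.6 and 104 CPM to 122 and 123 CPM (1.29-fold, adjusted p = 0.0202 by edgeR, lost in 3 of 15 alternative fits) and *Cxcl11* from 0.949 and 1.46 CPM to 1.95 and 3.2 CPM (2.19-fold, adjusted p = 0.0471 by edgeR, lost in 9 of 15). The difference of the responses did not pass the test for either gene (adjusted p = 0.141 and 0.594 by edgeR). *Ifitm2*, a neighbour of *Ifitm3*, fell with CC from 263 and 257 CPM to 166 and 154 CPM with the label normal and from 427 and 462 CPM to 236 and 254 CPM with the label steatotic (1.58-fold and 1.79-fold, adjusted p = 0.000396 and 4.59e-05 by edgeR). Its relative *Ifitm1* fell with CC from 1.86 and 2.58 CPM to 0.481 and 0.801 CPM with the label normal (log2 fold change -1.75, adjusted p = 0.00841 by edgeR), and from 4.01 and 4.55 CPM to 2.13 and 2.29 CPM with the label steatotic (-0.93, adjusted p = 0.0443 by edgeR, lost in 4 of 15 alternative fits). *Ifitm6* fell from 9.79 and 10.4 CPM to 6.3 and 5.97 CPM with the label normal (-0.68, adjusted p = 0.00869 by edgeR, lost in 1 of 15 alternative fits), and its log2 fold change of -0.22 with the label steatotic did not pass the test.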

How the data were processed

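RNA of 8 libraries of cultured hepatic macrophages was measured, 2 per group, assigned to groups by their labels. For these, the authors used fastp for trimming, HISAT2 for alignment to mm10 and StringTie for quantification, with versions not given in the sources used here, and deposited estimated counts (expected counts) per gene as whole numbers, without normalization or pooling. How coverage became counts is not described, and small values cluster at multiples of 4, so about 4 counts may stand for 1 fragment. Totals were 58668655 to 74529462 counts. The floor of 3 counts is 0.0403 to 0.0511 CPM and covers only counting error. A floor of 3 fragments, at 4 counts each, would be 0.161 to 0.205 CPM.

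CPM were scaled to library totals, and fold changes are on TMM-scaled counts (factors 0.981 to 1.03). Of 28711 genes with any count, the 15202 that reached 0.5 CPM in 1 or more libraries were tested with edgeR 4.0.16 in R 4.3.3 (robust glmQLFit, glmQLFTest, 1 model of 4 group means), 5 contrasts, and p-values adjusted by Benjamini-Hochberg over all tested genes, threshold 0.05. The SE is the log2 fold change divided by the square root of the F statistic. Gene positions and merged exon lengths are from GENCODE M21 on GRCm38, and promoters from RefSeq for GRCm38.p6. The fits were tested on simulated counts. Mc4r was examined by an exact permutation test in scipy 1.17.1, and figures were drawn with matplotlib 3.10.9.

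The members, role groups and further lists were chosen with earlier results of these data known, so no test of a whole list was made, and the counts of a list stand beside those of all tested genes. Values per library are given for the 3 highest and 3 lowest members passing the test in each contrast and for the 2 most abundant members of each role. Also named with their values are both interferons tested, their receptors, *Stat2* and the 2 highest and 2 lowest genes passing the test in each contrast in each further list, apart from an item that is not reported here. *Oasl2*, *Irf9* and *Tlr7* were named after their values were seen, as libraries of a group lay apart. Alternatives were DESeq2 1.42.0, its size factors in edgeR, 2 other filters, only the 4 libraries of a comparison, a replicate block, counts divided by 4, and each library left out in turn, where a group with 1 library is assumed to vary like the others.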

Additional observations from a re-analysis of the deposited data

Results flagged for a closer look

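None of the 41 members passed the test of a difference between the responses to CC with the label steatotic and with the label normal, and 5 genes of the further lists did, all by edgeR's quasi-likelihood test with Benjamini-Hochberg adjustment over all tested genes, of which 1.95% had a higher and 1.27% a lower response with the label steatotic. They were 1 of 14 genes of receptors and signalling, 3 of 19 sensing genes and 1 of 79 further interferon-stimulated genes. The response of *Jak2* was higher with the label steatotic by 0.41 on the log2 scale (adjusted p = 0.0276), that of *Ikbke* by 0.44 (adjusted p = 0.0266) and that of *Ifit1bl1* by 0.53 (adjusted p = 0.00642). The response of *Tlr9* was lower with the label steatotic, with a difference of -0.89 (adjusted p = 0.00572), and that of *Tlr13* with a difference of -0.38 (adjusted p = 0.0117). The differences of *Jak2* and *Ikbke* lost their call in 6 of 14 alternative fits each, and those of *Tlr9*, *Tlr13* and *Ifit1bl1* kept it in all 14. Among the cell type markers, the macrophage genes *Adgre1* (difference -0.30, adjusted p = 0.0205) and *Vsig4* (-0.50, adjusted p = 0.0367) and the endothelial gene *Pecam1* (-1.2, adjusted p = 0.00368) had a lower response with the label steatotic, and *S100a8* (1.31, adjusted p = 0.0101) and *Itgax* (1.59, adjusted p = 0.00497) a higher one. These were 2 of 10 macrophage markers (median difference -0.04, with 4 above 0), 1 of 5 tested endothelial markers (2 above 0), 1 of 6 tested markers of recruited monocytes (median 0.18, range -0.93 to 1.31) and 1 of 5 tested markers of conventional dendritic cells (median -0.26, with 2 above 0). The differences of these marker genes were not followed over the alternative fits.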

How the results depend on the processing

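Between the labels, the counts of members and their medians stayed close to the values given: over all alternatives 21 to 24 members were higher and 4 or 5 lower with Veh, and 21 to 26 were higher and 4 lower with CC. Calls made in every alternative numbered 25 of 28 with Veh (not *Ifit1*, *Ifitm3* and *Isg20*), 24 of 29 with CC, 3 of 7 for CC with the label normal and 6 of 12 for CC with the label steatotic. No member or further-list gene run in the alternatives changed sign where either fit made a call. Uncalled effects did change sign, such as that of *Irf1* between the labels with CC (log2 fold change -0.35 to 0.51) and of *Oasl2* at Veh (-0.42 to 1.06). The responses to CC depended more on single libraries. The 4 lower members with the label normal became 2 with DESeq2, 2 with the replicate block and 1 to 4 when a library was left out. With the label steatotic, leaving out a library gave 3 to 7 higher and 3 to 6 lower members. For the difference of the responses, 1 member (*Ifi44*) was lower with DESeq2 and with all genes with any count, and leaving out a library gave 0 to 1. The median with the label normal, 0.00165, ranged from -0.0386 to 0.0308 when a library was left out. The cause of these shifts was not tested, beyond the smaller number of libraries in such fits. Same-numbered libraries deviated together with correlations of -0.00485 to 0.0629, so the numbers were not taken as pairs. The replicate block left 350 single-gene results on their side of the threshold, lost 12 calls and gained 3. Depth limits most the named genes with few counts, among them *Mc4r*, *Ifnb1*, *Ifng*, *Ly6g*, *Klk1*, *Ifitm1* (30 to 335 counts), *Ifit1bl2* (175 to 395 counts) and *Cxcl11* (67 to 188 counts with the label normal).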
